A study of Mus musculus with 4 samples.

Results

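The leukocyte adhesion genes Itga1, Itga2, Itgal, Itgae and Selplg were followed through the deposited table of methylated DNA capture, and every row carrying 1 of these 5 gene labels was taken. They held 9 of the 10000 regions of the table, 3 in Itga1, 2 in Itga2, 2 in Itgal, 1 in Itgae and 1 in Selplg. The libraries came from spleen and lymph node CD4+ T cells of female Balb/c mice, whose ages the labels do not give, with 1 library for each of 4 sorted populations. Naive T cells were CD3+CD4+CD45RB_high. Th1 cells were CD3+CD4+CD45RB_low, interferon gamma positive and IL17A negative, and Th17 cells CD3+CD4+CD45RB_low, IL17A positive and interferon gamma negative. Regulatory T cells (Treg) were CD3+CD4+CD25++. All 4 populations were exposed to PMA and ionomycin for 3 h, before sorting in naive, Th1 and Th17 cells and after sorting in Treg cells. The doses were 10 ng/ml PMA and 500 ng/ml ionomycin in naive, Th1 and Th17 cells, and none is given for Treg cells. Whether animals were pooled is not stated. CD25 also rises on activated T cells, so the Treg gate is not a Foxp3 gate, and naive cells were defined by CD45RB alone.

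Integrins are cell surface receptors made of an alpha and a beta chain, and they hold a leukocyte to other cells or to matrix. Selectins act earlier, when they catch a rolling leukocyte by sugars carried on proteins such as the Selplg product, PSGL-1. In CD4+ T cells both systems direct homing into lymph nodes, inflamed tissue and epithelia. DNA methylation at a gene's regulatory sequence often goes with low expression, whereas methylation inside a gene body is common in active genes too. The capture binds methylated CpG sites, so reads rise with methylation, with CpG content and with region length, and gene expression was not measured. No genome sequence of build mm9 was used here, and the region sequences are therefore not shown.

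The 3 libraries with reads in the table differed in depth. Over the table the naive library held 34277 reads, the Th1 library 19548 and the Treg library 74571, with 1 read worth 0.996, 1.68 and 0.352 deposited units. Th17 values were 0 throughout the table, in the 9 regions described here as in the rest. That library therefore offers no level and no fold here, and a 0 there does not set these genes apart. The table holds 10000 of 1483567 region numbers, and whether they were chosen for having no Th17 read is not stated. With 1 library per population no test between cell types was possible. Intervals are exact Poisson intervals at 95% for single libraries and exact binomial intervals of the reads for ratios. They cover counting error only and say nothing of the spread between animals. A label check was limited in the same way: of the T cell markers Cd3e, Cd4 and Ptprc, of the Treg markers Il2ra and Foxp3, and of the Th1 markers Ifng and Tbx21, 0 genes had a region. Markers of myeloid cells and of NK and CD8 cells had 0 regions as well. These positions do not report which cells were present.

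Itga1 encodes CD49a, the alpha chain of a collagen receptor found on tissue-resident memory T cells. Its 3 regions lay on chromosome 13 of mm9 (ENSMUSG00000042284), spread over 84.7 kb. The gene is on the minus strand in RefSeq GRCm38.p6, so the region with the highest coordinate lies nearest its 5′ end. That region was intronic (chr13:115890730-115891033, 304 bp), the next was intronic as well (chr13:115811848-115812103, 256 bp), and the last was assigned to exon 7 (chr13:115806309-115806664, 356 bp), 5.18 kb further along the gene.

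The exon 7 region held 5 naive reads (value 4.98, interval 1.62 to 11.6), 3 Th1 reads (5.04, 1.04 to 14.7) and 9 Treg reads (3.17, 1.45 to 6.02). The 3 libraries overlapped there. The nearer intronic region held 4 naive reads (3.98, 1.09 to 10.2), 0 Th1 reads and 11 Treg reads (3.88, 1.93 to 6.94). The intronic region nearest the 5′ end held 3 naive reads (2.99, 0.616 to 8.73), 0 Th1 reads and 7 Treg reads (2.47, 0.992 to 5.08). Both intronic regions were thus unread in Th1, while the exon 7 region, between them and the 3′ end, was read. Whether the intronic regions share an intron is not given. At the Th1 depth a count of 0 allows about 3 reads, a value of 5.04, and the upper end of its exact Poisson interval is 6.20. Both limits are above the naive and the Treg value of either intronic region. No Th1 difference was therefore detectable in these intronic regions. Of all regions, 12.29% had no Th1 read.

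Itga2 encodes CD49b, the alpha chain of a second collagen receptor, used as a surface marker of NK cells and of type 1 regulatory T cells. In the RefSeq table it is the protein-coding neighbour of Itga1, on the same strand. Both of its regions were intronic (ENSMUSG00000015533, chromosome 13), and the table held no other region between the first Itga2 and the last Itga1 region, a stretch of 229.6 kb. By the deposited region numbers this stretch covers 193 regions, of which the 5 shown are 2.59%. The whole table holds 10000 of 1483567 region numbers, or 0.674%. The stretch is therefore not shown to lack other captured regions. The region nearer the 3′ end (chr13:115661435-115661715, 281 bp) held 5 naive reads (value 4.98, interval 1.62 to 11.6), 2 Th1 reads (3.36, 0.407 to 12.1) and 5 Treg reads (1.76, 0.572 to 4.11). Here the Treg value was the lowest of the 3 libraries, inside the range that counting error gives. The region nearer the 5′ end (chr13:115714440-115714714, 275 bp) held 4 naive reads (3.98, 1.09 to 10.2), 4 Th1 reads (6.72, 1.83 to 17.2) and 10 Treg reads (3.52, 1.69 to 6.48). Its Th1 value was the highest of all 9 regions in any library, from 4 reads. Its mean over the 3 libraries, 4.74, exceeded that of 96.2% of the table's regions, and its mean per 100 bp that of 87.7%.

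**Figure D1:**
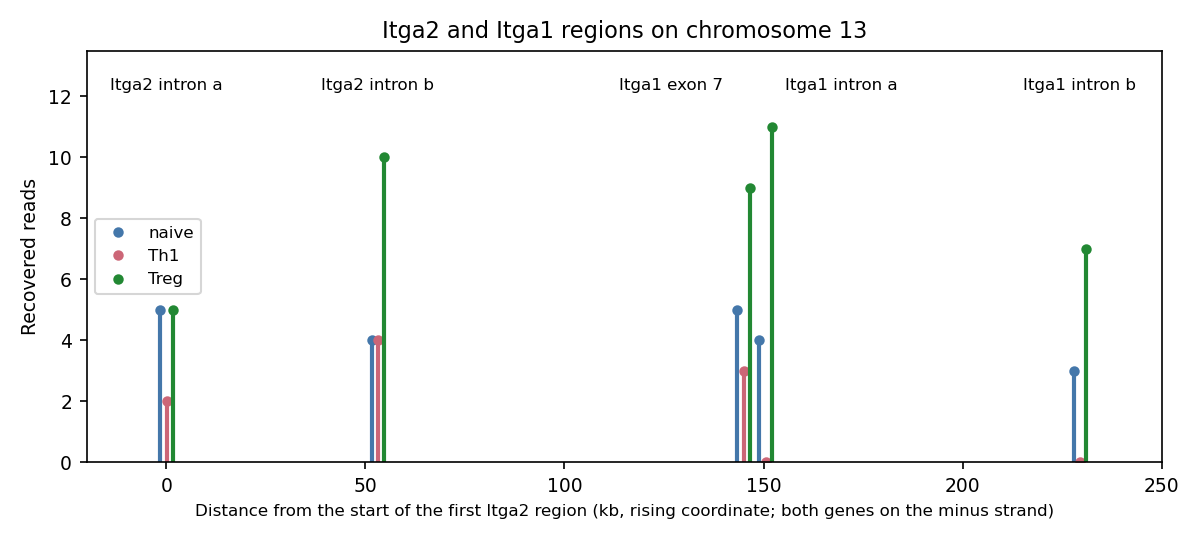
Recovered reads (vertical axis) in the naive, Th1 and Treg libraries at the 5 regions of Itga2 and Itga1, placed by distance in kb from the start of the first Itga2 region; the 3 bars of a region are set slightly apart for display. Th1 reads are 2 and 4 in Itga2, 3 in Itga1 exon 7 and 0 in both intronic regions of Itga1. Treg reads run from 5 to 11.

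Itgal encodes CD11a, the alpha chain of LFA-1, which binds ICAM-1 and steadies the contact of a T cell with endothelium and with antigen-presenting cells. Its 2 regions were intronic, 9.94 kb apart on chromosome 7 (ENSMUSG00000030830). The first (chr7:134451377-134451593, 217 bp) held 4 naive reads (value 3.98, interval 1.09 to 10.2), 2 Th1 reads (3.36, 0.407 to 12.1) and 7 Treg reads (2.47, 0.992 to 5.08). The second (chr7:134461534-134461778, 245 bp) repeated the naive and Th1 reads, 4 and 2, and held 11 Treg reads (3.88, 1.93 to 6.94). The 2 intronic regions thus differed only in Treg reads, and their Treg intervals overlapped.

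Itgae encodes CD103, the alpha chain that pairs with the beta 7 chain and binds E-cadherin on epithelial cells; a share of Treg cells carries it. Its single region was assigned to exon 14 (chr11:72931905-72932336, ENSMUSG00000005947) and was the longest of the 9, at 432 bp. It held 5 naive reads (value 4.98, interval 1.62 to 11.6), 2 Th1 reads (3.36, 0.407 to 12.1) and 9 Treg reads (3.17, 1.45 to 6.02). The Treg value was close to the Th1 value and the intervals of the 3 libraries overlapped.

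Selplg, the selectin ligand gene, had the only promoter region of the set (chr5:114280878-114281230, 353 bp, ENSMUSG00000048163). The deposited table gives it an offset of -544 bp, in a column that runs from -2228 to 644 bp over all promoter regions and whose definition is not given. It held the most reads of the 9 regions, 19, of which 5 were naive (value 4.98, interval 1.62 to 11.6), 3 Th1 (5.04, 1.04 to 14.7) and 11 Treg (3.88, 1.93 to 6.94). Only 5.16% of the table's regions had as many reads or more, but the region is long. Its mean value per 100 bp exceeded that of 58.9% of the table's regions. The naive and Th1 values of the Selplg promoter gave a log2 ratio of 0.02, but its interval, from -2.67 to 2.38, leaves room for differences in either direction.

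**Figure D2:**
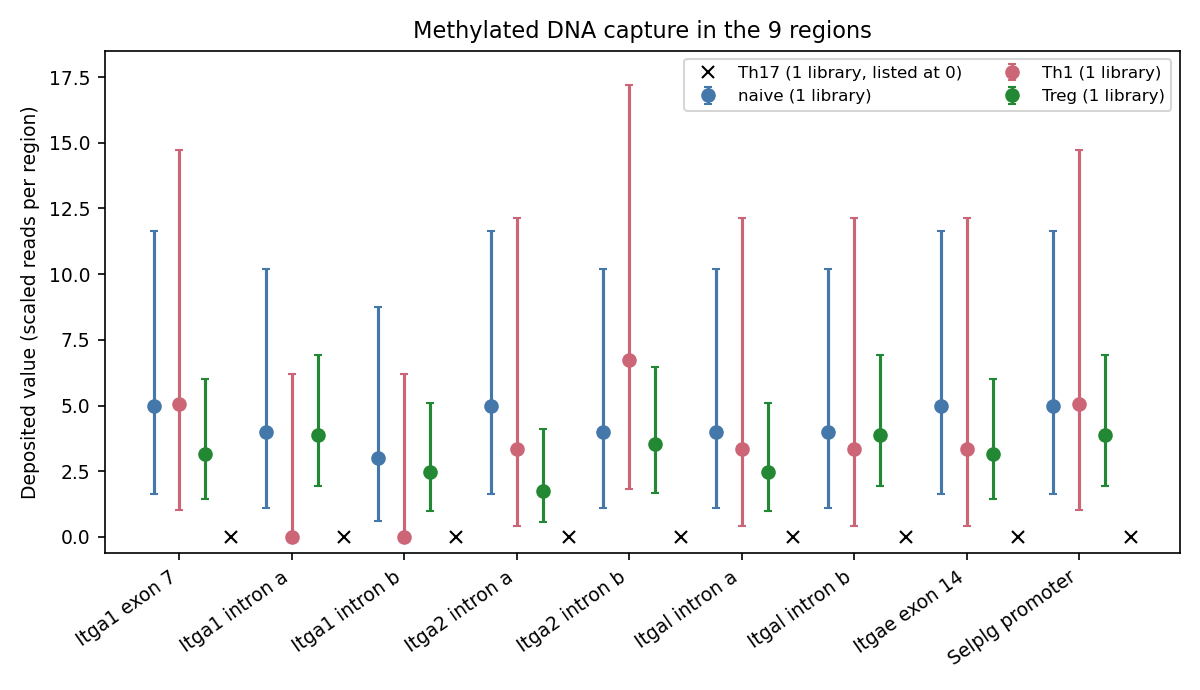
Deposited value (scaled reads) of each of the 9 regions in the naive, Th1 and Treg libraries, with exact 95% Poisson intervals. Th17 is shown as crosses at 0. Intron a and intron b name the intronic regions of a gene in order of coordinate. The 3 intervals overlap in every region, and the Th1 points at 0 are the 2 intronic regions of Itga1.

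Of the 9 regions 6 were intronic (66.7%, against 78.7% of the table), 2 exonic (22.2%, against 16.6%) and 1 in a promoter (11.1%, against 4.77%). The regions ranged from 217 to 432 bp, with a median of 281 bp against 249 bp in the table. The median of total reads was 16, against 13 in the table, and 7 of the 9 regions had a mean value above the table's median. Per length this was less marked: the median of the mean value per 100 bp was 1.24, against 1.22 in the table, and 5 of 9 regions lay above the table's median. Itga2, Selplg, Itga1 and Itgal had led an earlier ranking of adhesion genes by value, so the levels of the 9 regions are a description and support nothing. The intronic regions of Itga1 lay low, with mean values above those of 28.6% and 4.52% of the table's regions.

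Summed over a gene's regions and divided by their length, the naive value per 100 bp was 1.72 in Itgal (interval 0.745 to 3.40), 1.61 in Itga2 (0.737 to 3.06), 1.41 in Selplg (0.458 to 3.29), 1.30 in Itga1 (0.674 to 2.28) and 1.15 in Itgae (0.374 to 2.69). No neighbours in this order differed beyond counting error. In Th1 cells the order was Itga2 with 1.81 (0.666 to 3.95), Itgal with 1.46 (0.397 to 3.73), Selplg with 1.43 (0.295 to 4.17), Itgae with 0.778 (0.0942 to 2.81) and Itga1 with 0.551 (0.114 to 1.61). In Treg cells it was Itgal with 1.37 (0.814 to 2.17), Selplg with 1.10 (0.548 to 1.97), Itga1 with 1.04 (0.685 to 1.51), Itga2 with 0.951 (0.532 to 1.57) and Itgae with 0.734 (0.336 to 1.39). Itga1 and Itga2 thus stood at opposite ends in Th1 cells, with overlapping intervals, and Itgae was last or next to last throughout.

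**Figure D3:**
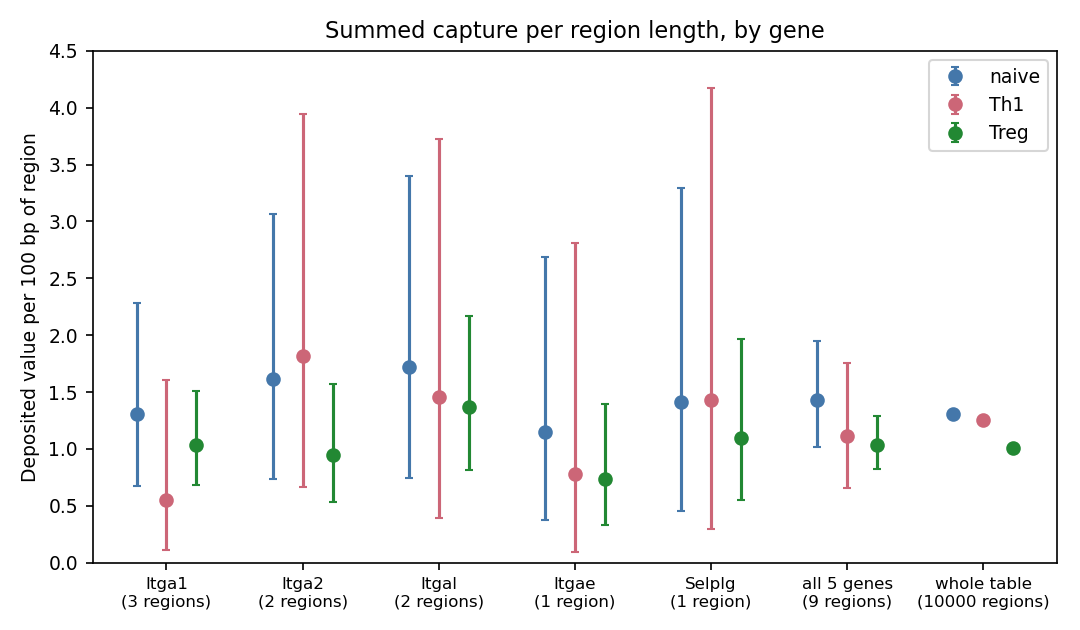
Deposited value per 100 bp of region, summed over the regions of each gene, of all 5 genes and of the whole table, in naive, Th1 and Treg cells, with exact 95% Poisson intervals. The intervals of the 5 genes overlap in each library, and the table's values of 1.30, 1.26 and 1.00 lie inside those of the 9 regions together.

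The libraries were then set against each other in pairs. A region was counted as higher or lower when its 2 values, each raised by 0.5, gave a log2 ratio of 1 or more in size. The log2 ratios of summed values also have 0.5 added to both sums. The intervals of ratios come from the reads with nothing added, so they are not centred on the same estimate. For Th1 against naive, 2 of the 9 regions were lower, the intronic Itga1 regions with no Th1 read, and 0 were higher. With 0.5 added, a Th1 zero beside any naive read is always counted as lower, so this count restates the 2 zeros. Of all 10000 regions, 29% were lower and 19.4% higher by the same rule. The median log2 ratio was -0.22 over the 9 regions and -0.19 over the table, and 0.02 over the 9 when the Th1 zeros stood at 3 reads. Summed over its 3 regions, Itga1 had a log2 ratio of -1.17 (interval -3.71 to 0.64), from 3 Th1 and 12 naive reads. The other genes had 0.16 (Itga2), -0.23 (Itgal), -0.51 (Itgae) and 0.02 (Selplg). All 9 regions together gave -0.36 (-1.25 to 0.48), and the 6 regions outside Itga1 gave -0.09 (-1.11 to 0.87), against -0.06 for the table.

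For Treg against naive, 1 region was lower and 0 were higher. The lower one was the intronic Itga2 region nearer the 3′ end, with a log2 ratio of -1.28 (interval -3.62 to 0.62). Of all regions, 22.2% were lower and 8.33% higher. The Treg value was below the naive value in 9 of 9 regions, with a median log2 ratio of -0.32, and in 63.4% of the table's regions, with a median of -0.29. This direction depended on the scaling. With each library scaled to the same total over the table, which raises each Treg to naive ratio by 0.38 before 0.5 is added, it held in 4 of 9 regions and 48.8% of the table, and with median-of-ratios scaling, which raises it by 0.36 on that same basis, in 5 of 9 and 49.4%. By gene the summed log2 ratio at the deposited scaling was -0.71 in Itga2 (-2.05 to 0.61), -0.58 in Itgae, -0.32 in Selplg, -0.31 in Itga1 and -0.31 in Itgal. At the same totals Itga2 had -0.36 and Itgae -0.24, while Itga1 and Itgal had 0.05 and Selplg 0.01. All 9 regions gave -0.46 (-1.03 to 0.13), against -0.38 for the table.

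For Treg against Th1, the same intronic regions of Itga1 were counted as higher in Treg, and 0 regions as lower. Of all regions, 17% were higher and 21% lower. The median log2 ratio was -0.34 over the 9 regions, -0.38 with the Th1 zeros at 3 reads, and -0.22 over the table. Summed by gene it was 0.85 in Itga1 (-0.78 to 3.28) and -0.87 in Itga2 (-2.38 to 0.72), on opposite sides of 0, and between -0.34 and -0.07 in Itgal, Itgae and Selplg. All 9 regions gave -0.10 (-0.85 to 0.72), against -0.32 for the table, and this sum changed sign with the scaling, to 0.22 at the same totals and 0.28 with median-of-ratios scaling. Itga1 and Itga2 kept their signs, with 1.16 and -0.57 at the same totals and 1.22 and -0.51 with median-of-ratios scaling. These scalings raise every Treg to Th1 ratio by 0.32 and 0.39 before 0.5 is added, so neither sign could change. Itgal turned to 0.22 and 0.29, Itgae to 0.21 and 0.27, and Selplg stood at -0.05 and 0.01. The pairs share libraries, so the intronic regions of Itga1 enter 2 of them through the same Th1 zeros. In each pair the interval of every single region and of each gene's sum included 0.

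**Figure D4:**
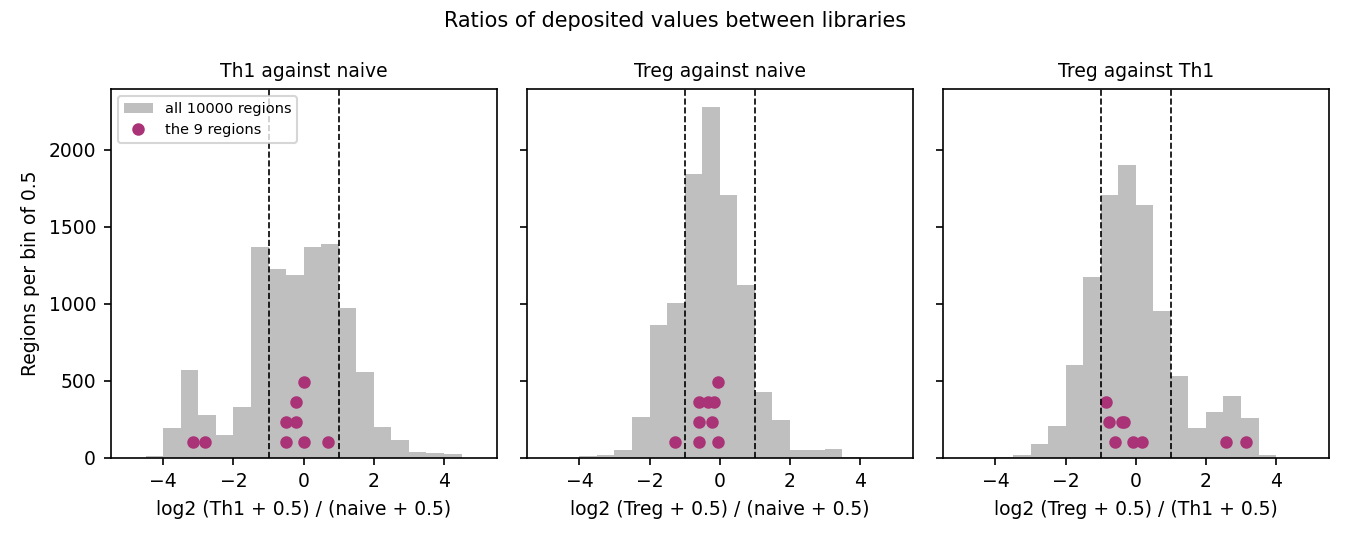
Log2 ratios of the deposited values, with 0.5 added to both, for 3 pairs of libraries: grey bars count all 10000 regions in bins of 0.5, points mark the 9 regions (stacked for display, with no meaning on the vertical axis), and dashed lines mark a log2 ratio of 1 in size. Far from the rest for Th1 against naive and for Treg against Th1 are the 2 intronic Itga1 regions with no Th1 read.

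A list of 77 genes of integrins, selectins, their ligands and regulators was drawn up with earlier results of these data known. Of its genes 29 had a region, 69 regions in all. The 5 members are on this list and have regions by the way they were chosen. Without them, 24 of 72 genes had a region (33.3%). Of all protein-coding symbols in the RefSeq table, 20.0% had one under the same label; gene length, which raises the chance of a region, was not taken into account. Of 18 integrin alpha subunits 10 had a region, 4 of them members, and of 8 beta subunits 2, Itgb3 and Itgb6. Itgb1, Itgb2 and Itgb7, which encode the beta chains that pair with the 4 integrins described here, had 0 regions. Of 15 integrin ligands 7 had a region, of 19 genes of integrin activation 6, and of 3 selectins 0. Of 14 selectin ligands with their glycosyltransferases 4 had one, the member Selplg among them. The absence of a region does not show that methylation was alike in the populations, since how the regions were chosen is not given.

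By reads, the leading genes of the list were Itga9 with 135 reads in 11 regions and Tln2, which encodes a talin that links integrins to actin, with 119 in 10. Itga11 followed with 58 reads, Itgb3 with 47, Itga8 with 43, Itga1 with 42, Itga6 with 41, the collagen gene Col4a1 with 37, and Itga2 and Itgal with 30 each. The 6 alpha subunits other than the members, Itga5, Itga6, Itga8, Itga9, Itga10 and Itga11, had 23 regions with mean values of 3.33 in naive, 2.48 in Th1 and 3.00 in Treg cells. The 9 regions of the members had 4.32 in naive (interval 3.07 to 5.90), 3.36 in Th1 (1.99 to 5.31) and 3.13 in Treg cells (2.48 to 3.90). The difference between the members and the other subunits was not tested. Itga2, Selplg, Itga1 and Itgal had led the earlier ranking by value, so the higher means of the members support nothing. Per 100 bp the members had 1.43, 1.11 and 1.04, and the 6 other alpha subunits 1.23, 0.915 and 1.11. Over the 60 list regions outside the members, 8 were higher and 19 lower in Th1 than in naive, where 19.4% and 29% of all regions were. In Treg 4 were higher and 11 lower than in naive (8.33% and 22.2% of all regions), and 14 higher and 12 lower than in Th1 (17% and 21%). Their median log2 ratios were -0.19, -0.23 and 0.22 in the 3 pairs, against -0.19, -0.29 and -0.22 over all regions, and the difference in sign for Treg against Th1 was not tested.

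The share of summed value that fell to each library described a gene's pattern. Itga1 had 45.1% in naive, 19.0% in Th1 and 35.9% in Treg, and Itga2 36.8%, 41.4% and 21.7%. Itgal had 37.9%, 32.0% and 30.2%, Itgae 43.3%, 29.2% and 27.5%, and Selplg 35.8%, 36.3% and 27.9%. By Euclidean distance over these 3 libraries, among genes with at least as many reads, Lgr5 and Nav2 lay nearest to Itga1, Gria1 and BC006965 to Itga2, and Gm14206 and Dlg2 to Itgal. For Itgae 15 genes had exactly the same shares, the first by symbol being 0610007L01Rik and 2810008D09Rik, and for Selplg 5 genes, the first being 1700016D06Rik and Chit1.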

How the data were processed

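Methylated DNA was captured from 4 sorted CD4+ T cell populations with a MethylCap kit, and 250 to 350 bp fragments went into the libraries, per the labels' protocols. Bowtie 0.12.7, FastQC and mm9 appear, without roles, in the submitters' processing notes. How regions were called and chosen, and how reads with several matches were treated, is not stated there. The deposited signal is a scaled number of reads per region. Each value in the naive, Th1 and Treg columns was a whole multiple of the smallest value above 0 (100% of values, to a relative tolerance of 1e-06), and division by it gave the reads. The deposited middle_difference column, here the offset of promoter regions, has no stated unit beyond whole numbers and was read as bp.

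All ratios were computed over the 10000 regions with Python 3.11.15, pandas 2.3.3 and scipy 1.17.1, and the functions were tested on simulated data. Alternatives were a pseudocount of 5, a log2 threshold of 1.5, a 1.5-fold threshold, 2 other scalings, a minimum of 10 reads, and merging of adjacent regions. Named are all regions of the 5 genes, the 10 listed genes with the most reads, other members of the list where a count is small, and the 2 genes nearest in pattern to each member. The members and lists were chosen with earlier results of these data known. Symbols were matched to RefSeq GRCm38.p6 for names, strand and neighbours only, and all 5 members matched. The results of 2 marker lists, which do have regions in the table, are not reported here.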

Additional observations from a re-analysis of the deposited data

How the results depend on the processing

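With a pseudocount of 5, 0 of the 9 regions were lower in Th1 than in naive, 0 lower in Treg than in naive and 0 higher in Treg than in Th1, where 2.21%, 0.73% and 0.18% of all regions were called. At a log2 threshold of 1.5, and with equal table totals or median-of-ratios scaling, 0 regions were lower in Treg than in naive, against 12.1%, 12.3% and 13.1% of all regions. At a threshold of 1.5-fold, 1 region was higher in Th1 than in naive, 2 were lower in Treg than in naive and 3 were lower in Treg than in Th1, against 31.6%, 39.2% and 35.2% of all regions. The other 48 of 57 recomputed counts and ratios of all 9 regions stayed within 1.5 times the count or within the counting interval. The ratios of single genes did so in 75 of 75 cases. Both tallies include the read minimum and the merging, which could not alter the 9 regions. The intervals of single genes are also wider than the shifts from scaling, so the tallies do not show that the ratios are stable. All 9 regions held at least 10 reads and no 2 of them adjoined, so the read minimum and the merging left them as they were. The Th1 library, with a median of 2 reads per region, sets the widest intervals. No paired analysis was possible because each population has 1 library.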
